A study of Mus musculus with 23 samples.

Results

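The data describe 7 G protein-coupled receptors of the striatum: the adenosine receptors ADORA2A and ADORA1, the muscarinic receptors CHRM1 and CHRM4, the cannabinoid receptor CNR1, and the orphan receptors GPR6 and GPR52. They were chosen by name, and every row of the deposited array report that carried 1 of these names was taken. This gave 11 probes for 6 genes, of 45281 probes in all, while GPR52 had no row under its symbol. ADORA1 had 4 probes, CHRM1 and CNR1 had 2 each, and ADORA2A, CHRM4 and GPR6 had 1 each. All 11 probes passed the filter on low signals, as did 32255 probes in the whole report.

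The arrays measured mRNA bound to tagged ribosomes (translating ribosome affinity purification, TRAP) from the striatum of Bac mice in which EGFP is joined to ribosomal protein L10a under the DRD1A or the DRD2 promoter, which marks the medium spiny neurons (MSNs) of the direct or of the indirect pathway. All mice were on a mixed C57BL/6J/Swiss-Webster background, were 71 days old by the labels, had a 6-OHDA lesion of the dopamine input on the side that was sampled, and were given LDOPA shortly before the tissue was taken. In the acute LDOPA groups this came after repeated vehicle, and in the chronic LDOPA groups after repeated LDOPA. By label there were 7 DRD1A acute LDOPA, 8 DRD1A chronic LDOPA, 4 DRD2 acute LDOPA and 4 DRD2 chronic LDOPA arrays, each from 1 mouse according to the methods. There was no unlesioned and no LDOPA-free group. The DRD2 promoter is also active in cholinergic interneurons, so the DRD2 line is not a pure sample of indirect pathway MSNs. The study's text gives the sizes of the DRD2 acute and DRD1A chronic groups the other way round, and the labels were followed here.

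As background, these receptors set the level of cyclic AMP or calcium in MSNs alongside dopamine. ADORA2A, which raises cyclic AMP, CHRM4, which lowers it, and GPR6 and GPR52, which raise it without a well established ligand, are best known from particular MSN populations: ADORA2A, GPR6 and GPR52 from the indirect pathway and CHRM4 from the direct pathway. ADORA1 and CNR1 couple to inhibitory G proteins and act largely on synaptic terminals, and CHRM1 couples to the Gq pathway.

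Arrays are named by BeadChip number and position, so that 2C is position C of BeadChip 2. Arrays 1D and 3A, both DRD2 chronic LDOPA, correlated at r = 0.99 over the probes kept, against 0.928 for the next closest of 253 pairs, and were averaged into 1 sample (1D+3A), which left 22 samples. The arrays detected between 13114 and 17443 probes at a detection p under 0.05, where detection compares a probe with the negative control probes of its own array. Of the markers that define the lines, the DRD2 probe lay between 9.95 and 11.46 in the DRD2 samples and between 7.11 and 7.76 in the DRD1A samples, on the normalized log2 scale that is used throughout. The DRD1A probe separated the lines less well: it read 9.28 on array 1A, 8.50 on array 4A and 8.42 on array 2C, all of the DRD2 line, inside the range of the DRD1A line, 8.12 to 10.35. CHAT, which makes acetylcholine and defines cholinergic interneurons, was detected on 4 of the 23 arrays, 2 of each line. It read 8.28 on the DRD2 acute array 2F, against 6.97 to 7.34 in the other samples. Over the 7 cholinergic interneuron markers, 0 to 2 were detected in any sample and their mean level was 7.01 to 7.20 and 7.03 to 7.13 in the acute and chronic groups of the DRD1A line, and 7.08 to 7.26 and 7.08 to 7.14 in those of the DRD2 line. In these bulk samples, fewer cells of a type and less RNA per cell cannot be told apart.

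The receptors differed in how far they rose above background. ADORA1 (probes 5080100 and 7510408) and CNR1 (probe 1440647) were detected on all 23 arrays, as were 19.6% of the probes kept. GPR6 (probe 70767) was detected on 8 of 8 DRD2 arrays and on 3 of 15 DRD1A arrays. ADORA2A (probe 3360386) was detected on 4 arrays, CHRM4 (probe 6200553) on 8, and the 2 CHRM1 probes on 7 (probe 50470, with the clearest signals on 4C, 2D and 1C) and 5 (probe 3290546). The levels of these 4 probes lay between 6.88 and 7.98, near the level of undetected probes. Where a gene had more than 1 probe, the one with the highest mean level stands for the gene, and levels of different probes are not compared with each other.

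**Figure D1:**
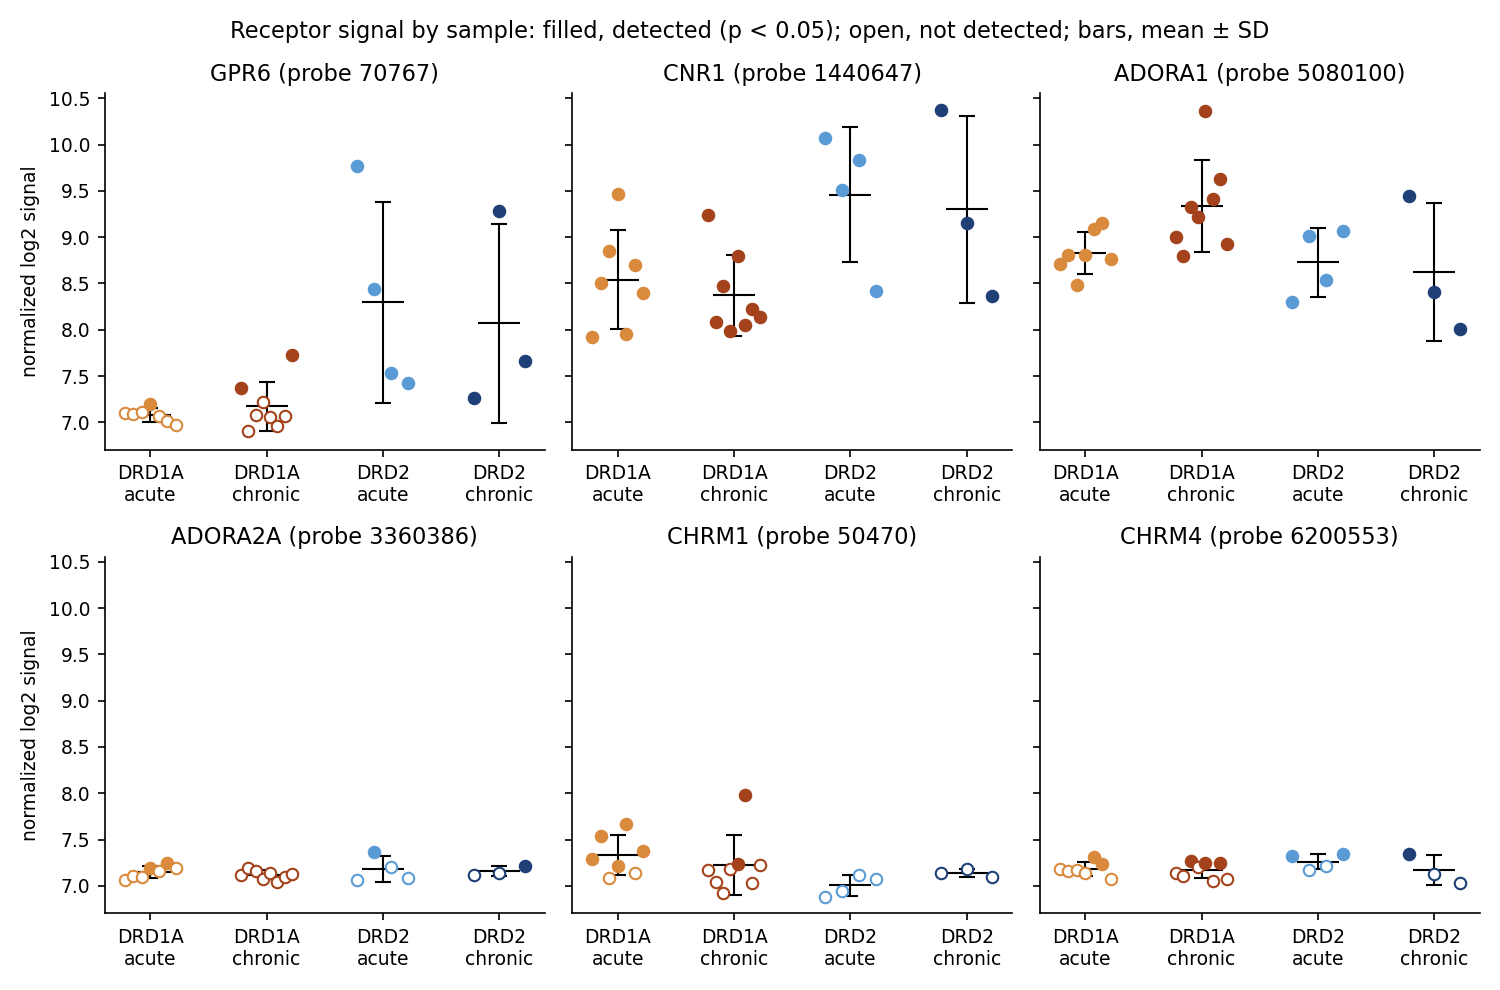
Normalized log2 signal of the brightest probe of 6 receptors in each of the 22 samples by group, filled where the probe was detected (p under 0.05) and open where it was not, with the group mean and SD as bars. GPR6 is filled in all DRD2 samples and in 3 DRD1A samples, CNR1 and ADORA1 are filled throughout, and ADORA2A, CHRM1 and CHRM4 lie between 6.88 and 7.98 in all groups.

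GPR6 is an orphan receptor that raises cyclic AMP without an added ligand and is known as a marker of striatopallidal MSNs. Its 250 bases before the annotated start are shown because this was the only receptor of the set detected on every array of 1 line and on few of the other. The gene (Entrez 140741) lies on chromosome 10, and the window is chr10:41072291-41072540 on the minus strand of GRCm38.p6, from RefSeq, printed 5′ to 3′ with motif matches in capitals.
GPR6: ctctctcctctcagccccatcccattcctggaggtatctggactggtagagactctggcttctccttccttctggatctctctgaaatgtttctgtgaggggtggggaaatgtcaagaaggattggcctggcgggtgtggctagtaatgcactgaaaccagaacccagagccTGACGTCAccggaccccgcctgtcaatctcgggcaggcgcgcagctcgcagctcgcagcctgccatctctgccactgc
The capitals mark 2 overlapping matches to the core of the cyclic AMP response element (TGACG, both strands), which begin 78 and 75 bases before the start and together form 1 palindrome. Of 32851 promoter windows of this length in the table, 17.8% held this core. Neither an AP-1 site (TGANTCA, found in 6.75%) nor an SP1 box (GGGCGG, found in 32.7%) occurred in the GPR6 window. These are matches of letters, not measured binding sites.

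In the DRD2 acute LDOPA samples GPR6 read 9.77 (2C), 8.44 (2F), 7.54 (3F) and 7.43 (4E). In the DRD2 chronic LDOPA samples it read 9.28 (1D+3A), 7.66 (4A) and 7.26 (1A). Array 2C and the averaged pair were thus far brighter than the other DRD2 samples, and the groups had SDs of 1.09 (n = 4) and 1.07 (n = 3). The 7 DRD1A acute LDOPA samples lay between 6.97 and 7.20 with a median of 7.09, and the 8 DRD1A chronic LDOPA samples between 6.91 and 7.73 with a median of 7.07. After acute LDOPA every DRD2 sample was above every DRD1A sample, and after chronic LDOPA the groups overlapped, since the DRD1A array 4F (7.73) was above the DRD2 arrays 4A and 1A.

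The deposited signals before normalization ran from 153.5 to 875.3 on the 8 DRD2 arrays and from 111.1 to 191.8 on the 15 DRD1A arrays. Some samples changed places with normalization: array 4F (172.8) lay below 4A (241.9) and 2A (191.8) by signal, and above both by normalized level. The 3 DRD1A arrays that detected GPR6, with their signals, were 1F (135), 2A (191.8) and 4F (172.8). The spread between samples of a group, pooled over groups, was 0.594 on the log2 scale, whereas the median standard error from the beads of 1 array was 0.0648, with a median of 37 beads an array. Detection on all DRD2 arrays and on at most 3 DRD1A arrays is a pattern defined from GPR6 itself, which meets it by construction. It was met by 2 of the 32255 probes kept (0.0062%), and the other was ATAD2. The DRD2 probe did not meet it, since 13 of 15 DRD1A arrays detected that probe. The pattern therefore does not rank probes by their line difference.

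**Figure D2:**
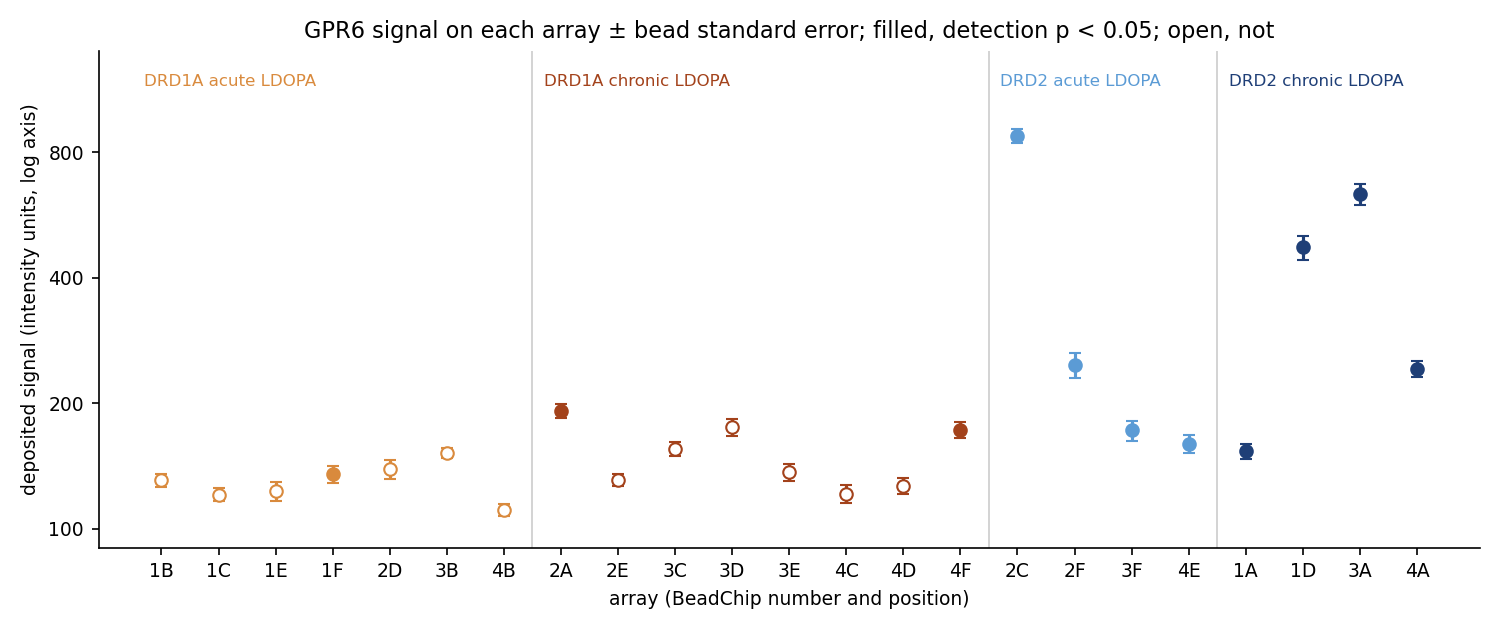
Deposited, unnormalized GPR6 signal on each of the 23 arrays (log axis, intensity units) with the bead standard error, grouped by line and treatment, filled where detected and open where not. The DRD2 arrays 2C, 3A and 1D reach 875.3, 634.6 and 472.9, and no DRD1A array exceeds 191.8.

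GPR6 was detected on only 1 of 7 DRD1A acute and 2 of 8 DRD1A chronic arrays, so the line differences that follow are measured against a level near background, and their size depends on how background is treated. The DRD1A minus DRD2 difference of GPR6 between the lines was -1.22 on the log2 scale after acute LDOPA, and did not pass the test across all probes (SE 0.359, 95% interval -1.97 to -0.46, limma adjusted p = 0.240, unadjusted p = 0.00304). After chronic LDOPA the difference was -0.90 (SE 0.388, adjusted p = 0.747), and with normexp -1.93. Averaged over both treatments, a comparison added after the data were seen, it was -1.06 (SE 0.264, 95% interval -1.61 to -0.50, adjusted p = 0.113), with 118 of 32255 probes called (0.366%) and 8.59% of probes at an unadjusted p under 0.05. Of the 11 probes, 3 were under that p: GPR6 and CNR1 1440647, lower in DRD1A, and ADORA1 7510408, which ran the other way (0.54, adjusted p = 0.361). Under 4 of 11 alternative settings fitted for this average, leaving out single arrays aside, the adjusted p of GPR6 fell under the threshold (0.0381 to 0.0443). The lowest of these came with 23 arrays as separate samples, which counts the near-identical arrays 1D and 3A separately. Leaving out array 2C brought the acute difference to -0.72, and background correction by normexp brought it to -2.73, neither of them called. GPR6 did not change detectably with treatment: chronic minus acute LDOPA was 0.09 in DRD1A (SE 0.297) and -0.23 in DRD2 (SE 0.438, 95% interval -1.14 to 0.69).

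Within BeadChips, with 1 to 3 arrays of a group on each, GPR6 had the lower mean in DRD1A wherever both lines were present. After acute LDOPA the DRD1A minus DRD2 difference was -2.04 on BeadChip 2, -0.52 on BeadChip 3 and -0.46 on BeadChip 4. After chronic LDOPA it was -2.14 on BeadChip 3 and -0.40 on BeadChip 4. The DRD1A arrays in these differences did not detect GPR6, except 4F on BeadChip 4, so the values are differences from background level. With BeadChip as a block the fitted differences were -1.10 (adjusted p = 0.489) and -0.97 (adjusted p = 0.947).

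Across the 22 samples GPR6 correlated with the DRD2 probe at r = 0.71 and with the DRD1A probe at r = -0.48, a description in which the lines make most of the range. Among the DRD2 samples, the order of GPR6 was not that of DRD2: arrays 4A and 4E had DRD2 at 11.17 and 11.19, close to the 11.34 of array 2C, and GPR6 at 7.66 and 7.43 against 9.77. Array 1A, the DRD2 chronic LDOPA sample with the lowest DRD2 level (9.95) and the highest DRD1A level of its line (9.28), had the lowest GPR6 level of the line. The 8 markers of all MSNs also moved with line: their mean level was 10.23 to 10.84 in the DRD1A samples and 10.93 to 11.38 in the DRD2 samples. None of these markers was called on its own in either line comparison. Their part in the GPR6 and CNR1 differences was not tested. Without arrays 1A and 2C, the line differences of GPR6 were -0.72 after acute and -1.29 after chronic LDOPA.

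**Figure D3:**
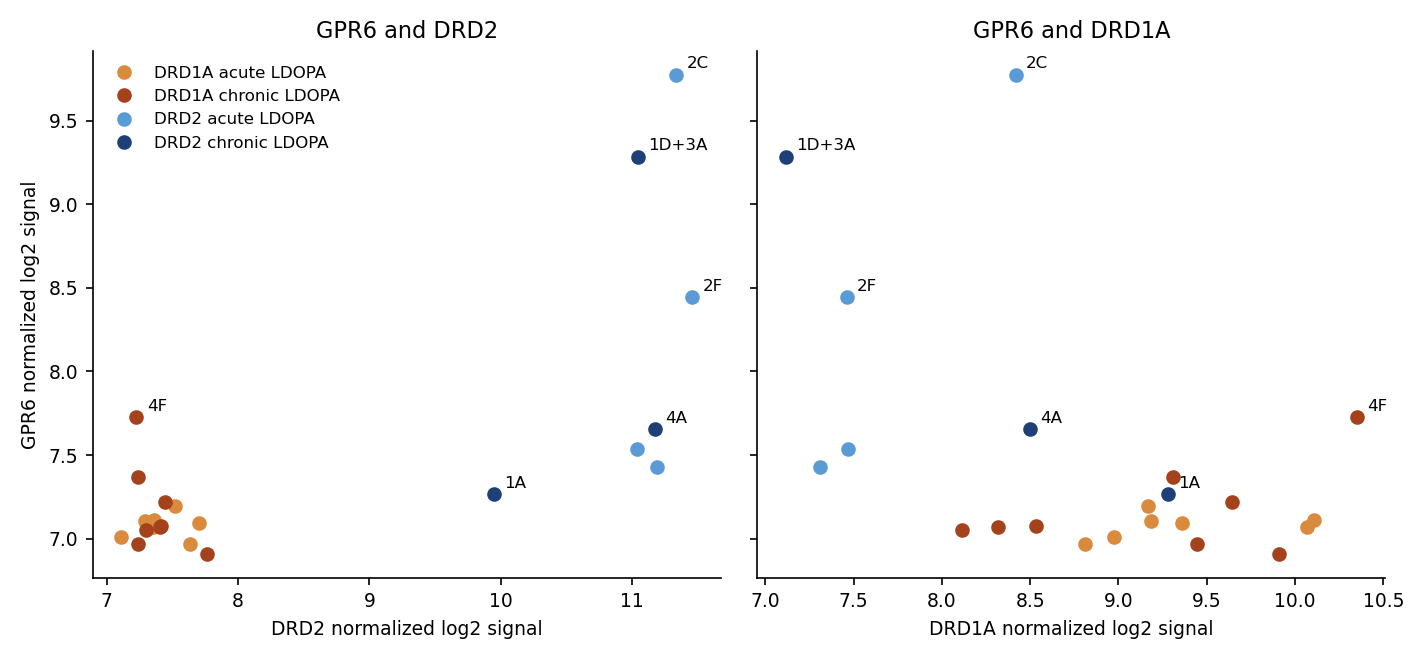
GPR6 level against the DRD2 level (left) and the DRD1A level (right) in the 22 samples, all as normalized log2 signal, with 6 samples labelled by array. GPR6 ranges from 7.26 to 9.77 among the DRD2 samples, whose DRD2 levels lie between 9.95 and 11.46, and reaches at most 7.73 in the DRD1A samples.

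CNR1, the CB1 cannabinoid receptor (Entrez 12801, chromosome 4), which curbs transmitter release in response to endocannabinoids, was detected on every array, and its mean level was higher in the DRD2 groups without passing the test. The DRD2 acute LDOPA samples read 10.07 (2C), 9.83 (3F), 9.51 (2F) and 8.42 (4E), and the DRD2 chronic LDOPA samples 10.38 (1A), 9.16 (1D+3A) and 8.36 (4A). In the DRD1A acute LDOPA group the lowest sample was 7.92, the median 8.50 and the highest 9.47, and in the DRD1A chronic LDOPA group they were 7.99, 8.18 and 9.24. The groups overlapped in both comparisons, because the DRD2 arrays 4E and 4A lay among the DRD1A samples. The DRD1A minus DRD2 difference was -0.92 after acute LDOPA (SE 0.370, 95% interval -1.69 to -0.14, adjusted p = 0.453) and -0.93 after chronic LDOPA (SE 0.400, 95% interval -1.76 to -0.09, adjusted p = 0.744), and -0.92 over both treatments (adjusted p = 0.219).

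Single arrays carried much of this. Array 1A, with the highest CNR1 level of the DRD2 line (10.38), had the lowest DRD2 level (9.95) and the highest DRD1A level (9.28) of that line. Without array 1A the chronic difference of CNR1 was -0.39, and without array 4A it was -1.40. Within BeadChips the acute difference was -1.84, -1.14 and -0.02 on BeadChips 2, 3 and 4, and the chronic difference -0.72 and -0.22 on BeadChips 3 and 4. The other CNR1 probe (2340408), detected on 16 arrays, gave 0.03 (SE 0.337) after acute and -0.45 (SE 0.364) after chronic LDOPA. It was detected on 4 of 4 DRD2 chronic arrays but on 1 of 4 DRD2 acute arrays (2C, 8.57), and correlated with the first at r = 0.21 over the 22 samples. The acute difference of CNR1 thus rests on 1 of 2 probes. CNR1 did not pass in either treatment comparison (-0.17 in DRD1A and -0.16 in DRD2). Some GABAergic interneurons are also rich in CNR1, and the 6 GABAergic interneuron markers had a mean level of 7.75 to 8.33 in the DRD1A samples and 7.58 to 8.02 in the DRD2 samples. Their part in the CNR1 values was not tested.

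ADORA1, the inhibitory A1 adenosine receptor (Entrez 11539, chromosome 1), was the only receptor of the set with 2 probes detected on every array, and both read highest in the DRD1A chronic LDOPA group. Probe 5080100 averaged 9.33 ± 0.495 (SD, n = 8) there, against 8.83 ± 0.226 (n = 7) in DRD1A acute, 8.73 ± 0.372 (n = 4) in DRD2 acute and 8.62 ± 0.744 (n = 3) in DRD2 chronic LDOPA samples. Probe 7510408 averaged 8.93 ± 0.557, 8.33 ± 0.224, 8.17 ± 0.522 and 8.02 ± 0.210 in the same order of groups. For probe 7510408 every DRD1A chronic sample (8.22 to 9.99) was above every DRD2 chronic sample, which read 8.17 (1D+3A), 8.10 (4A) and 7.78 (1A). For probe 5080100 the groups overlapped: the DRD1A chronic samples ran from 8.80 to 10.36, and the DRD2 chronic samples read 9.45 (1A), 8.40 (1D+3A) and 8.01 (4A).

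After chronic LDOPA the DRD1A minus DRD2 difference of ADORA1 was 0.71 by probe 5080100 (SE 0.290, 95% interval 0.11 to 1.32, adjusted p = 0.698) and 0.91 by probe 7510408 (SE 0.283, 95% interval 0.32 to 1.51, adjusted p = 0.460). After acute LDOPA it was 0.10 (SE 0.269) and 0.16 (SE 0.262). Chronic minus acute LDOPA in DRD1A was 0.50 (SE 0.222, adjusted p = 0.606) and 0.60 (SE 0.217, adjusted p = 0.465), and in DRD2 it was -0.11 (SE 0.328) and -0.15 (SE 0.320). The difference between these changes, the interaction of line and treatment, was 0.61 (SE 0.396, adjusted p = 0.902) and 0.75 (SE 0.386, adjusted p = 0.888), and did not pass. By probe 5080100 it was 0.30 without array 4A and 1.02 without array 1A. By the same probe the change in DRD1A was 0.83 (adjusted p = 0.13) with median centering and 0.34 without BeadChip 1. BeadChip 1 held the DRD1A acute arrays 1B, 1C, 1E and 1F but no DRD1A chronic array. Treatment and BeadChip can therefore not be fully told apart in this change.

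The 2 probes gave the same direction by group but not by sample. Array 3E had the highest value of the group on probe 5080100 (10.36) and the lowest on probe 7510408 (8.22), and array 3C had the highest on probe 7510408 (9.99) and 9.32 on the other. Over the 22 samples they correlated at r = 0.26. Without array 1A the chronic line difference by probe 5080100 was 1.13, and without array 4A it was 0.41. Within BeadChips it was 1.04 on BeadChip 3 and 1.32 on BeadChip 4. Chronic minus acute LDOPA in DRD1A was -0.18 on BeadChip 2, 0.48 on BeadChip 3 and 0.56 on BeadChip 4. Probes 2940026 and 3710224 were detected on 9 and 6 arrays, and their chronic line differences did not pass either. The 6 cortical excitatory neuron markers, genes of a cell type in which ADORA1 is also known to be expressed, had a mean level of 8.24 to 8.71 in the DRD1A samples and 7.48 to 8.37 in the DRD2 samples. Their part in the ADORA1 values was not tested.

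The ADORA1 window before 1 of its 2 annotated starts, chr1:134235458-134235707 on the minus strand of GRCm38.p6 from RefSeq, is shown beside that of GPR6 because ADORA1 had 2 probes detected on every array, 1 of them without overlap between the lines after chronic LDOPA.
ADORA1: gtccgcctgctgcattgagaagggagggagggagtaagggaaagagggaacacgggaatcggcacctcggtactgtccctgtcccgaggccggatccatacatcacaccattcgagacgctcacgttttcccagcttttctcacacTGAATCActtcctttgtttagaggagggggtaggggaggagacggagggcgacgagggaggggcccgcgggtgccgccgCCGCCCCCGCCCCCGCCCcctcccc
Its capitals mark 1 AP-1 match, 104 bases before the start, and 3 adjacent SP1 box matches (on the opposite strand, as CCGCCC) that begin 25, 19 and 13 bases before it, with no match to the cyclic AMP response core. Of the 7 genes, 4 were found in the table with 7 windows in all. That core was found in the GPR6 window alone among them, the AP-1 site in this ADORA1 window alone, and the SP1 box also in the CHRM4 window (3 places) and in 1 of 3 CNR1 windows (5 places).

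ADORA2A, the adenosine receptor that opposes DRD2 signaling (Entrez 11540, chromosome 10), gave no usable signal on these arrays. Its samples lay between 7.04 and 7.37 in all 4 groups, it was detected on 2 of 15 DRD1A arrays and on 2 of 8 DRD2 arrays, and the spread between samples (0.0764) was near the bead error of 1 array (0.052). The DRD2 arrays that detected it were 2F (7.37) and 4A (7.22), and its level on array 2C, the brightest for GPR6, was 7.06. No fold difference is given, since both sides were near background.

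CHRM4, the M4 receptor that opposes cyclic AMP (Entrez 12672, chromosome 2), lay between 7.03 and 7.35. It was detected on 5 of 15 DRD1A arrays and 3 of 8 DRD2 arrays, with overlapping groups, and no fold difference is given. CHRM1, the M1 receptor (Entrez 12669, chromosome 19), lay at 6.88 to 7.98 on probe 50470. That probe was detected on 5 of 7 DRD1A acute, 2 of 8 DRD1A chronic, and 0 of 8 DRD2 arrays. Its highest sample was the DRD1A chronic array 4C (7.98, signal 244.4). The second CHRM1 probe (3290546) was detected on 3 DRD1A acute and 2 DRD2 chronic arrays, so the probes did not share an order of groups, and they correlated at r = 0.05.

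No receptor passed the test in any comparison. With an adjusted p under 0.05, 0 of 11 probes were called between the lines after acute LDOPA, where 0.158% of all probes kept were called, and 0 of 11 after chronic LDOPA (0.0279% of all). The count was also 0 of 11 for chronic against acute LDOPA in DRD1A (0.0341% of all), in DRD2 (0.0031%) and for the interaction (0%), and for limma's F test of any difference among the 4 groups (0.295%). At an unadjusted p under 0.05 in limma, the counts were 3 of 11 (9.11% of all probes), 5 of 11 (6.14%), 3 of 11 (7.8%), 0 of 11 (6.28%), 1 of 11 (5.57%) and, by the F test, 5 of 11 (10%). These counts include CHRM1 probes near background. Probe 50470 was among those after acute LDOPA, and probe 3290546 among those after chronic LDOPA, in DRD1A and by the F test. For the interaction, CHRM1 probe 3290546 was the only one counted, and no ADORA1 probe was. A one-way analysis of variance with Benjamini-Hochberg adjustment, the test named in the methods, was also run on the 22 samples used here. It called 0 of the 6 genes and 37 probes in all. The paper reported more probes from its own run. That run kept a slightly different number of probes, and the paper describes no averaging of arrays. Its stated group sizes also differ from the labels. The counts are therefore not like for like, and the cause of the gap was not tested. Groups that did not overlap were seen for GPR6 after acute LDOPA, lower in DRD1A (0.707% of all probes), and for ADORA1 probe 7510408 after chronic LDOPA, higher in DRD1A (0.992%). No probe of the set was separated in the opposite directions, higher in DRD1A after acute (0.784% of all probes) or lower after chronic LDOPA (0.732%). Between chronic and acute LDOPA the count of separated probes was 0 of 11 in DRD1A, where 0.0558% of all probes were higher and 0.0806% lower after chronic LDOPA, and 0 of 11 in DRD2, where 3.28% and 3.62% were. The median log2 difference over the 6 genes was -0.06 after acute and -0.02 after chronic LDOPA, against -0.01 and 0.01 over all probes, and 3 of the 6 genes enter it with values near background.

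**Figure D4:**
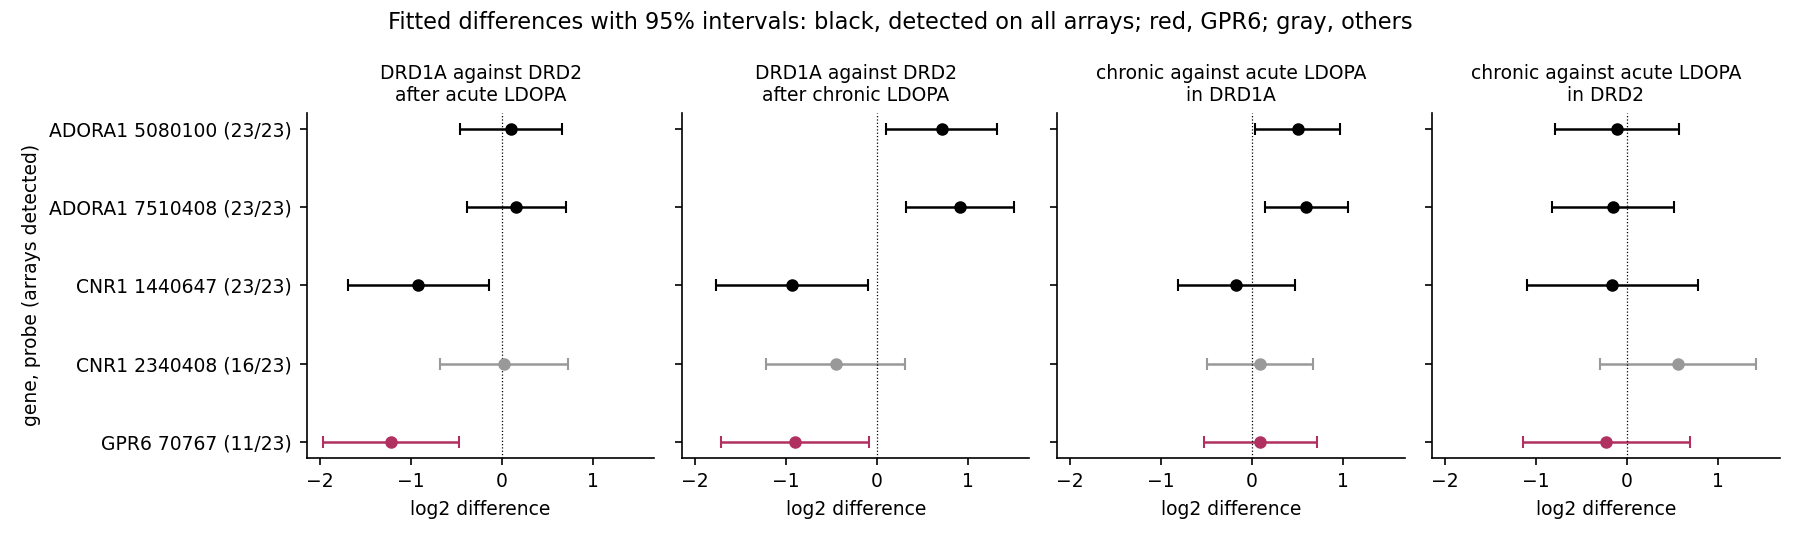
Fitted log2 differences with 95% intervals for the 5 probes detected on every array of at least 1 group, in the 2 line comparisons (DRD1A minus DRD2) and the 2 treatment comparisons (chronic minus acute), with the number of arrays that detected each probe. GPR6 and CNR1 probe 1440647 lie below 0 in both line comparisons, and both fully detected ADORA1 probes lie above 0 after chronic LDOPA, but none has an adjusted p under 0.05.

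By the pattern over the 22 samples, the genes most like GPR6 among 8446 probes detected at p under 0.01 on every array of at least 1 group were TIMP3 (r = 0.88), BPTF (0.82) and SLC10A4 (0.80). Those most like CNR1 were SPC24 (0.76), GATAD1 (0.73) and SLMAP (0.71), and those most like ADORA1 were PLAGL1 (0.67), ACOT1 (0.67) and DUSP4 (0.67), each among 8445 probes. GPR6 met that limit on 9 of 23 arrays, so its likeness runs over DRD1A values that are mostly background. These are descriptions of shared order over samples that share BeadChips and line.

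Of the related receptors, 13 of 14 listed were on the array and 10 were kept, and 0 were called in any of the 4 comparisons of groups. GPR12, a sister of GPR6, was detected on 23 arrays and differed by -0.40 after acute LDOPA (adjusted p = 0.795). GPR149, an orphan receptor detected on 12 arrays, differed by -0.42 (adjusted p = 0.845). After chronic LDOPA both fitted differences had the opposite sign, 0.35 for GPR12 and 0.25 for GPR149. Another sister, GPR3, was detected on 15 arrays.

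The genes that supply or clear the ligands did not pass either. Of 10 genes for adenosine, 6 were kept and 0 called, with a median line difference of -0.04 after acute LDOPA. The largest was ADK, the adenosine kinase, at -0.33 (adjusted p = 0.778), while NT5E, which makes adenosine from AMP, was detected on 6 arrays and ENTPD3, an ectonucleotidase, on 0. Of 6 genes for acetylcholine, 5 were kept and 0 called. After acute LDOPA they were led by the choline transporter SLC44A1 (-0.67, adjusted p = 0.530), with the cholinesterase BCHE at -0.24. After chronic LDOPA both had the opposite sign, 0.20 for SLC44A1 and 0.13 for BCHE. CHAT was detected on 4 arrays, and no difference is given for it. Of 10 endocannabinoid genes, all were kept and 0 called. FAAH, which breaks down anandamide, differed between the lines by 0.69 after acute (adjusted p = 0.626) and by -0.72 after chronic LDOPA (adjusted p = 0.907). Chronic minus acute LDOPA, FAAH changed by 2.03 in DRD2 (SE 0.464, limma adjusted p = 0.427) and by 0.62 in DRD1A (adjusted p = 0.665). The DRD2 change compares 3 chronic with 4 acute samples. FAAH was detected on 19 arrays, and its DRD2 acute mean was 7.36, near the level of undetected probes. The DRD2 change is thus measured from a level near background. MGLL, which breaks down 2-arachidonoylglycerol, came nearest to the threshold: chronic minus acute LDOPA was 1.10 in DRD1A (adjusted p = 0.0965) and 0.94 in DRD2 (adjusted p = 0.692). After acute LDOPA the CB1 partner CNRIP1 differed by 0.54 (adjusted p = 0.347) and the lipase ABHD6 by -0.50 (adjusted p = 0.769). CNRIP1 was thus higher on the DRD1A side by its fitted value, 11.17 against 10.63, while CNR1 was lower there, and neither passed.

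Downstream of the receptors, 24 genes for G proteins, adenylyl cyclases and cyclic AMP targets were on the array, 23 were kept and 0 were called. Their median line difference was -0.10 after acute LDOPA, against -0.01 for all probes, and -0.17 after chronic LDOPA, against 0.01. The 3 largest were PDE10A (-0.88, adjusted p = 0.329) and PDE7B (-0.60, adjusted p = 0.541), phosphodiesterases that break down cyclic nucleotides, and GNAL (-0.67, SE 0.145, adjusted p = 0.0730), the stimulatory G protein of striatal dopamine and adenosine receptors. After chronic LDOPA the GNAL difference was -0.05, and GNAL read 11.31 and 11.85 in the acute and chronic DRD1A groups and 11.97 and 11.90 in the DRD2 groups. PDE10A, GNAL and some other genes of this list are also among the 8 markers of all MSNs. The median line difference of those markers after acute LDOPA was -0.64, with 0 of them called. The part of MSN content in these downstream differences was not tested.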

How the data were processed

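Each striatum's ribosome-bound RNA was amplified and run on Illumina Mouse WG-6 v2 BeadChips. The deposited intensity values are unlogged bead means for each probe, without normalization. The deposited report adds bead count, bead standard error and a detection p-value against negative controls. The log2 values of the series table were quantile normalized by the authors. They served as an alternative, for rows whose values bore out the match of names (35758 of 45281), which left out ADORA1 probe 5080100. The 4 columns of 1 array with no listed sample were not used.

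Signals were quantile normalized, floored at 1 and logged (limma 3.58.1, R 4.3.3). Probes above the 20th percentile on every array of at least 1 group were kept (71.2%). The 4 group means were fitted on 22 samples, with two-sided moderated tests (18 residual and 1.41 prior degrees of freedom) and Benjamini-Hochberg adjustment over all probes kept, and called at 0.05. The written design named the near-identical arrays under another BeadChip numbering; they are 1D and 3A here. The receptors and lists were chosen with earlier results of these data known. All receptors are named. Of listed genes, those called are named, plus at most 3 a list with the largest acute line difference. GPR3 and MGLL were added after values were seen. A result that this rule would name is not reported here. Genes most alike were sought among probes detected at p under 0.01 on every array of a group. The fit was tested on simulated data. Motifs were sought in the 250 bases before each start. The number of arrays and their signal over background limit the precision.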

Additional observations from a re-analysis of the deposited data

Results flagged for a closer look

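In 3 of 33 groups of values, 1 sample stood apart from the others by Dixon's ratio, where chance gives about 1 in 20. On ADORA1 probe 2940026, the DRD1A acute array 1F read 8.589, against 7.391 for the next highest. On CHRM1 probe 50470, the DRD1A chronic array 4C read 7.977, against 7.231. On CNR1 probe 2340408, the DRD2 acute array 2C read 8.574, against 7.3, and it was the only array of its group to detect this probe. Array 2C was also the brightest of its group for GPR6 and for CNR1 probe 1440647.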

How the results depend on the processing

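Under every alternative that could be fitted, 0 receptors were called in the 2 line comparisons, the 2 treatment comparisons, the interaction and the F test, and the same held when each array was left out in turn. The line difference over both treatments was the exception: 1 receptor, GPR6, was called with 23 arrays as separate samples (-1.21, adjusted p = 0.0381), with normexp background correction (-2.33, adjusted p = 0.0415), with the filter on detection p (-1.06, adjusted p = 0.0408, 3 genes left) and without arrays 1A and 2C (-1.01, adjusted p = 0.0443), of which the last was chosen after seeing the data. The first of these settings counts the near-identical arrays 1D and 3A separately, and both were bright for GPR6 (9.31 and 9.26). Leaving out 1 array gave GPR6 -1.25 to -0.81 for the difference over both treatments, with adjusted p from 0.054 to 0.177. Of 16 log2 differences followed for ADORA1, CNR1 and GPR6, none of them called, most kept their sign, and 11 values turned it, besides those from leaving out 1 array. For GPR6 in DRD2, chronic minus acute LDOPA became 0.077 with 23 arrays, 0.17 without BeadChip 1 and 0.67 without arrays 1A and 2C. For CNR1 it became 0.22 (BeadChip block), 0.024 (without BeadChip 1) and 0.045 (median centering) in DRD1A, and 0.031 (median centering) and 0.20 (mean of all probes) in DRD2. For ADORA1 it became 0.10 in DRD2 with median centering, and the acute line difference became -0.0021 with the mean of all probes and -0.040 without arrays 1A and 2C. When 1 array was left out, ADORA1 ran from -0.040 to 0.22 for the acute line difference and from -0.52 to 0.20 for the change in DRD2, CNR1 from -0.70 to 0.31 and GPR6 from -0.52 to 0.27 for the change in DRD2. The cause was not tested. Filters and sample number change which probes share the adjustment. No paired analysis was possible because the labels number arrays by BeadChip position and give no pairs of mice. For ADORA2A, CHRM1 and CHRM4, signal near background is the limit: a difference was not detectable, which does not show that there was none.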
